A study of Homo sapiens with 11 samples.

Results

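The NRF2 antioxidant genes described here are a set of 9 genes, NFE2L2, KEAP1, GCLC, GCLM, TXNRD1, SRXN1, NQO1, HMOX1 and AKR1B10, among the 57773 genes of the expression table. They were picked by gene name, for what they encode, with earlier results of these data known. The study sequenced RNA from HCC78 cells in 9 libraries. HCC78 is a lung adenocarcinoma line that carries an endogenous U2AF1 S34F allele and an SLC34A2-ROS1 fusion. U2AF1 is the small subunit of the U2AF splicing factor and contacts the AG at the end of introns. Stable subclones carried a tagged wild-type (WT) or S34F U2AF1 cDNA in a lentiviral vector that doxycycline switches on. The groups were WT dox+ with 2 libraries, S34F dox+ with 2, WT dox- with 2, S34F dox- with 1, and the parental line with 2, which the labels give as grown without doxycycline, although another heading in the study gives it as with. The labels put S34F at 12% and 14% of U2AF1 mRNA in WT dox+, 62% and 65% in S34F dox+, 33% in both WT dox- libraries, 28% in S34F dox- and 32% in both parental libraries. By the labels no parental library received doxycycline, so the drug and the induced protein cannot be told apart, nor can the S34F construct and its subclone in a comparison of the lines. Nothing in the sources states that replicates came from separate cultures, so p-values measure the spread between these libraries, which may be technical.

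NRF2, the product of NFE2L2, is a transcription factor that binds antioxidant response elements as a dimer with small MAF proteins. KEAP1 holds NRF2 in the cytoplasm and hands it to a ubiquitin ligase. Oxidants and electrophiles modify KEAP1, and NRF2 then accumulates and raises genes of glutathione synthesis, thioredoxin reduction and quinone detoxification. Mutations in KEAP1 and NFE2L2 are known from lung cancer, where the pathway is studied for its part in drug resistance.

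The antioxidant response element is a short DNA motif, and its core was searched as TGACNNNGC on both strands in the 250 bases before the RefSeq start sites of the GRCh38.p14 build. Of the 9 genes, 7 were in the promoter table, with 10 start sites, and HMOX1 and AKR1B10 were not. Sequence outside these 250 bases was not searched, so a window without a match does not show that a gene lacks the element. The core was in 4 of these 10 windows, 1 of GCLM, 2 of TXNRD1 and 1 of KEAP1, and in 10.9% of all 35116 windows of the same length. The 3 windows of GCLM and TXNRD1 are shown because these genes were called in the mean doxycycline response given further on, a comparison added after the data were seen that rests in part on 1 library. Each is written 5′ to 3′ on the strand of the gene with the match in capitals. They lie at chr1:93909432-93909488 (minus strand), chr12:104215656-104215712 (plus strand) and chr12:104286906-104286962 (plus strand).
GCLM: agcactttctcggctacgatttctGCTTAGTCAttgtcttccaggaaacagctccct
TXNRD1, first start site: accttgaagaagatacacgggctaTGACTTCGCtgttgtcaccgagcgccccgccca
TXNRD1, second start site: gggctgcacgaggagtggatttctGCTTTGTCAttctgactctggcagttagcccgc
The GCLM match begins 34 bases before the start site and is on the opposite strand. Those of TXNRD1 begin 99 and 102 bases before their start sites, the former on the strand of the gene and the latter on the opposite strand. KEAP1 had 2 matches before 1 of its 2 start sites. A match of these letters is a description of the window and no measurement of binding, and binding of NRF2 was not measured.

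U2AF1 itself was at 278 and 299 FPKM, a read density scaled by transcript length and library total, with WT induced, and at 164 and 223 with S34F induced, against 103 to 115 in the 5 libraries without doxycycline. Epithelial markers were high in all 9 libraries, with KRT7 at 2873 FPKM or above and EPCAM at 407 or above. The lung transcription factor NKX2-1 was at 49.1 to 67.8 FPKM, and the surfactant gene SFTPB at 0.25 to 2.05. The leukocyte marker PTPRC did not exceed 2.71 FPKM and the monocyte marker CD14 did not exceed 0.55, while CD68, a lysosomal gene used as a macrophage marker, was at 13.5 to 34.4, and the fibroblast gene COL1A1 was at 2.83 to 7 FPKM. The table has no counts, so read depth is unknown. Relative to the first parental library, depth was estimated at 0.605 and 0.699 in S34F dox+ and at 0.866 to 1.25 in the other libraries. The estimate used the most common ratio of FPKM among genes of low FPKM and is an indirect measure. Genes at 1 FPKM or more numbered 15736 to 20896 in the 4 dox+ libraries and 13661 to 14688 in the other 5. These measures moved with doxycycline and with the construct, and their part in the results was not tested.

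NFE2L2 and KEAP1, the transcription factor and its inhibitor, did not separate WT dox+ from S34F dox+ or from WT dox-. NFE2L2 was at 79.2 and 96.2 FPKM in WT dox+, 98.2 and 66.5 in S34F dox+, 70.5 and 86.4 in WT dox-, 70.8 in S34F dox- and 96.1 and 99 in the parental line. The parental libraries were above both WT dox- libraries, while the dox+ groups overlapped with each other and with WT dox-. KEAP1 was at 18.7 and 25.9 FPKM in WT dox+, 18.3 and 24.5 in S34F dox+, 21.1 and 22.4 in WT dox-, 24.3 in S34F dox- and 26.9 and 23.1 in the parental line. Both WT dox- libraries were below both parental libraries in FPKM, but not in TPM, where WT dox- replicate 2 was at 19.74 and parental replicate 2 at 18.9. The KEAP1 mean ranged from 21.4 FPKM in S34F dox+ to 25 in the parental line, a gap smaller than the distance between the replicates of either dox+ group.

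GCLC and GCLM encode the catalytic and the modifier subunit of glutamate-cysteine ligase, which makes the first product of glutathione synthesis. GCLC was at 21.8 and 14.8 FPKM in WT dox+, 9.83 and 13.1 in S34F dox+, 19.5 and 22.2 in WT dox-, 19.1 in S34F dox- and 17.3 and 13.8 in the parental line. Both S34F dox+ libraries lay below every other library in FPKM. In TPM, the other deposited scale, S34F dox+ replicate 2 was at 11.29 and parental replicate 2 at 11.26. GCLM was at 14.5 and 13.7 FPKM in WT dox+, 10.6 and 9.48 in S34F dox+, 21 and 17.7 in WT dox-, 20.5 in S34F dox- and 18.8 and 16.2 in the parental line. All 4 dox+ libraries were below all 5 others in FPKM, but not in TPM, where WT dox+ replicate 1 was at 13.49 and parental replicate 2 at 13.25. S34F dox+ was below WT dox+ on both scales, while the 3 groups without doxycycline overlapped.

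TXNRD1, cytosolic thioredoxin reductase, and SRXN1, sulfiredoxin, which repairs overoxidized peroxiredoxins, belong to the thioredoxin arm. TXNRD1 had the highest mean of the 9 genes on the FPKM scale, at 184 over the 9 libraries. It was at 158 and 185 FPKM in WT dox+, 117 and 153 in S34F dox+, 224 and 235 in WT dox-, 255 in S34F dox- and 175 and 151 in the parental line. The uninduced transduced lines were above all other libraries, and the parental libraries lay among the dox+ libraries. SRXN1 was at 18 and 20.1 FPKM in WT dox+, 21.4 and 16.6 in S34F dox+, 27.1 and 24.9 in WT dox-, 23.6 in S34F dox- and 22.9 and 25.5 in the parental line. As for GCLM in FPKM, the 4 dox+ libraries were below the other 5, but the WT dox+ and S34F dox+ libraries overlapped. The shares of all genes with such orders of the 9 libraries were not counted, here or for GCLC, GCLM and TXNRD1.

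NQO1 encodes a quinone reductase, HMOX1 the inducible heme oxygenase and AKR1B10 an aldo-keto reductase. NQO1 was at 54.6 and 52.4 FPKM in WT dox+, 43.6 and 37.2 in S34F dox+, 58.1 and 62.5 in WT dox-, 44.2 in S34F dox- and 76.7 and 49.4 in the parental line. The 3 libraries of the S34F line were the lowest 3 of the 9, with and without doxycycline. HMOX1 was at 14.7 and 14.3 FPKM in WT dox+, 11.7 and 12.6 in S34F dox+, 13.9 and 20.2 in WT dox-, 12.4 in S34F dox- and 19.5 and 14.5 in the parental line. As for NQO1, the 3 libraries of the S34F line were the lowest. The share of all genes with this order was not counted.

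AKR1B10 was listed at 0 in all 4 dox+ libraries. It was at 0.61 and 0.85 FPKM in WT dox-, 0.4 in S34F dox- and 0.24 and 0.29 in the parental line. Of all genes listed, 4 were at 0 in all 4 dox+ libraries and above 0 in all 5 others, and 55 genes had the opposite pattern. With a mean of 0.266 FPKM, AKR1B10 was under the minimum mean of 1 FPKM and was left out of the fit, and reads shared with close paralogs may have been split. With no minimum FPKM its mean doxycycline response was -0.64, with an adjusted p of 0.109 in limma.

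**Figure D1:**
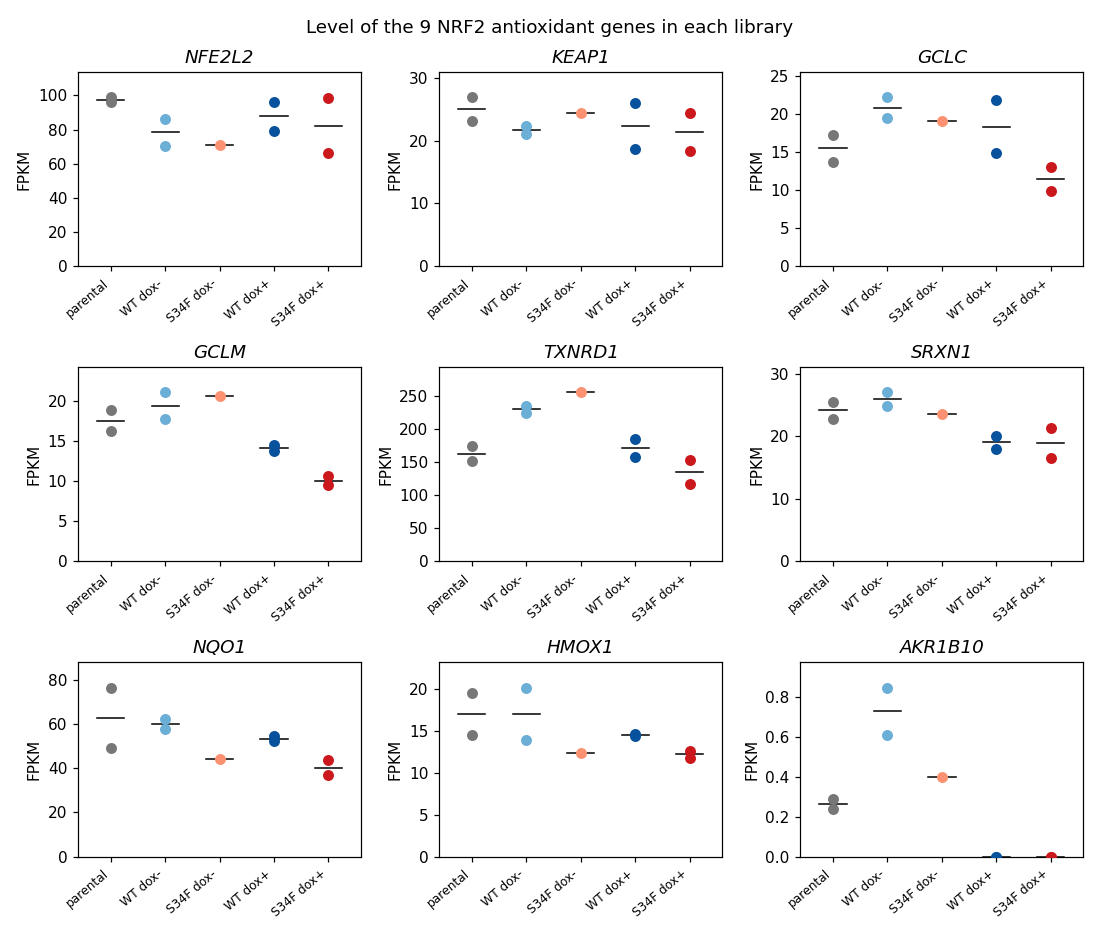
FPKM (y axis, from 0, a scale of its own in each panel) of the 9 genes in each of the 9 libraries (points) by group (x axis), with the group mean as a line. On this scale GCLM and SRXN1 are lower in the 4 dox+ libraries than in the other 5 (for GCLM not in TPM), and AKR1B10 is listed at 0 in the 4 dox+ libraries. The share of all genes lower in the 4 dox+ libraries than in the other 5 was not counted.

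The pairs of genes did not vary alike over the 9 libraries. On the log2 scale, Pearson's r of GCLM was 0.77 with TXNRD1, 0.78 with SRXN1 and 0.71 with GCLC. NQO1 and HMOX1 had an r of 0.86. NFE2L2 had an r of -0.07 with GCLM, -0.37 with GCLC and -0.44 with TXNRD1. Its r was 0.38 with NQO1, 0.33 with HMOX1, 0.22 with SRXN1 and 0.03 with KEAP1. These describe 9 libraries that share groups, depth and composition. GCLM had the widest range of group means among the tested genes of the set. Among 10023 genes, those with the highest r to GCLM were MRPS7 at 0.98 and HK1, DDX1, POLD1 and DNAJB11, and those with the lowest were INO80D at -0.97, ZNF75D and VPS13D.

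Whether the mutant construct changed these genes was asked by comparing S34F dox+ with WT dox+. All 8 tested genes of the set were lower in S34F dox+, by 0.02 to 0.62 on the log2(FPKM + 1) scale, and none passed the test. Log2 values were fitted with limma-trend over 15179 genes whose mean reached 1 FPKM, and 0.0527% of these (8 genes) had an adjusted p under 0.05. The pseudocount of 1 understates differences of low genes. The median of the 8 differences was -0.29, beside 0.03 over all genes tested, of which 44.6% were lower. For 5 of the 8, GCLC, GCLM, TXNRD1, NQO1 and HMOX1, both S34F dox+ libraries were below both WT dox+ libraries, which held for 15.3% of all genes. No gene of the set was higher without overlap, which held for 20.5% of all genes. Without doxycycline, the single S34F dox- library differed from the WT dox- mean by -0.44 for NQO1 and -0.41 for HMOX1. It differed by -0.12 for GCLC, 0.09 for GCLM and 0.15 for TXNRD1, all without a test.

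GCLC differed by -0.62 ± 0.22 (SE), with an adjusted p of 0.657 in limma. GCLM differed by -0.45 ± 0.15 (SE), with an adjusted p of 0.619 in limma. The 95% interval was -1.14 to -0.10 for GCLC and -0.80 to -0.11 for GCLM, before any adjustment for the number of genes. NQO1 was lower by 0.40, with an adjusted p of 0.759, and TXNRD1 by 0.35, with an adjusted p of 0.739. HMOX1 was at -0.23, NFE2L2 at -0.11, KEAP1 at -0.06 and SRXN1 at -0.02. GCLC ranged from -0.88 to -0.36 with single libraries left out, the latter without WT dox+ replicate 1, and TXNRD1 from -0.55 to -0.15, the latter without S34F dox+ replicate 1. NFE2L2, KEAP1 and SRXN1 changed sign when single libraries were left out. Without WT dox+ replicate 2 the number of genes lower was 5 of 8, without S34F dox+ replicate 2 it was 6 and without S34F dox+ replicate 1 it was 7.

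Doxycycline in the wild-type line was examined by comparing WT dox+ with WT dox-. Of the 8 genes, 6 were lower and 2 higher, none passed the test, and 0.0132% of all genes (2 genes) did. GCLM, SRXN1 and TXNRD1 were lower by 0.43, 0.43 and 0.42, with adjusted p of 0.274, 0.284 and 0.285 in limma. NFE2L2 was at 0.16 and KEAP1 at 0.02, and GCLC, HMOX1 and NQO1 were at -0.20, -0.20 and -0.17. The median difference was -0.20, beside 0.05 over all genes. Both WT dox+ libraries were below both WT dox- libraries for 4 of the 8, GCLM, TXNRD1, SRXN1 and NQO1, as for 20.8% of all genes. None of the 8 was higher without overlap, as were 28.9% of all genes.

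In the S34F line the single dox- library allowed differences without a test. The mean of the S34F dox+ libraries was below it by 0.97 for GCLM, 0.93 for TXNRD1, 0.70 for GCLC and 0.31 for SRXN1 on the log2 scale. Differences of -0.19 for KEAP1, -0.13 for NQO1, -0.02 for HMOX1 and 0.19 for NFE2L2 completed the set. Both S34F dox+ libraries were below the dox- library for 5 of the 8 genes, GCLM, TXNRD1, GCLC, SRXN1 and NQO1, as for 28.7% of all genes. Both were above it for none of the 8, as for 42.9% of all genes.

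A contrast of the responses of both lines to doxycycline rests on the single S34F dox- library. No gene of the set passed, and 0.0264% of all genes (4 genes) did. The contrast was -0.54 ± 0.23 (SE) for GCLM, -0.50 ± 0.24 (SE) for TXNRD1 and -0.50 ± 0.35 (SE) for GCLC, each with an adjusted p of 1 in limma. Its 95% interval for GCLM ran from -1.08 to 0.00471, so a difference between the lines of 0 and one of -1 both lay inside it. The other 5 genes were between -0.21 and 0.18.

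Averaged over both lines, 2 of the 8 genes fell with doxycycline, GCLM and TXNRD1. This average was added after the values of the other comparisons had been seen. One side of it is the S34F line, whose single dox- library was assumed to vary like the other groups and could not be left out. In the wild-type line alone, as given above, neither gene passed. GCLM fell by 0.70 (SE 0.12, 95% interval -0.97 to -0.42), with an adjusted p of 0.0312 in limma. TXNRD1 fell by 0.68 (SE 0.12, 95% interval -0.96 to -0.39), with an adjusted p of 0.0375 in limma. Over all genes 3.88% were called, 424 higher and 165 lower. SRXN1 was at -0.37 with an adjusted p of 0.124, and GCLC at -0.45 with an adjusted p of 0.168. NQO1, HMOX1 and KEAP1 were at -0.15, -0.11 and -0.09, and NFE2L2 at 0.17. In all, 7 of the 8 were lower, with a median of -0.26 beside 0.08 over all genes.

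Both calls were near the threshold. GCLM had an adjusted p between 0.0723 and 0.123 without WT dox+ replicate 1, WT dox+ replicate 2, S34F dox+ replicate 2 or WT dox- replicate 1. It was 0.0490 without S34F dox+ replicate 1 and 0.0454 without WT dox- replicate 2. TXNRD1 was called without S34F dox+ replicate 2, at 0.0454, and had an adjusted p between 0.0517 and 0.139 without any of the other 5 libraries. The difference itself stayed between -0.76 and -0.64 for GCLM and between -0.77 and -0.58 for TXNRD1 in these fits.

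**Figure D2:**
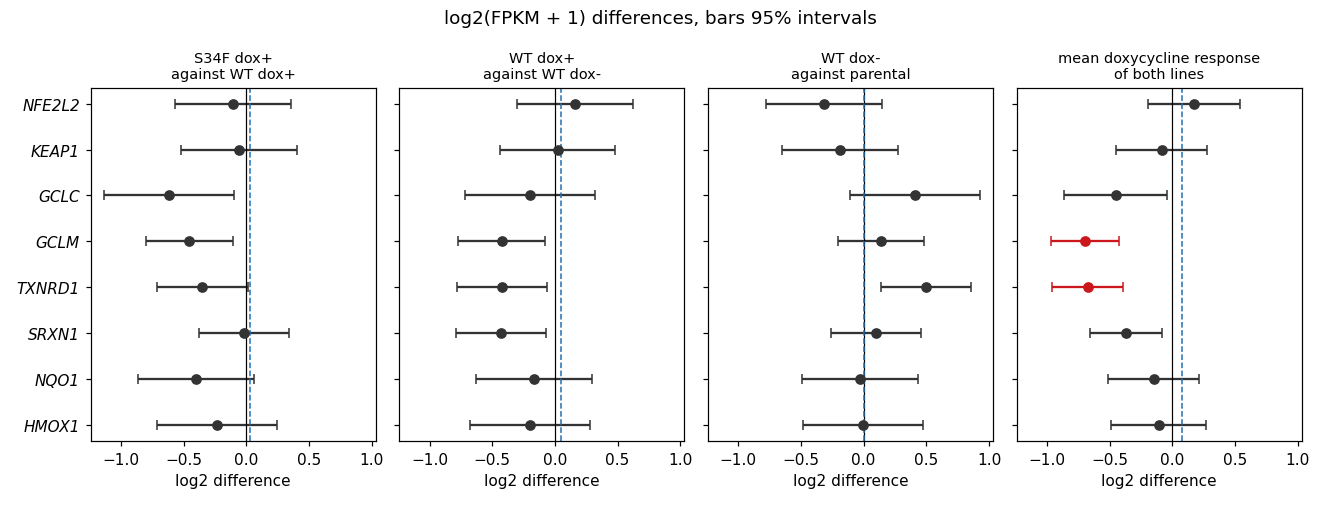
Difference in log2(FPKM + 1) (x axis) of the 8 tested genes (y axis) in 4 comparisons, with 95% intervals of the limma fit as bars, the median of all genes tested as a dashed line, and an adjusted p under 0.05 in red. GCLM and TXNRD1 in the mean doxycycline response, at -0.70 and -0.68, are the points in red.

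The transduced line without doxycycline was compared with the parental line to see what transduction and subcloning left in place. No gene of the set passed, and 0.0988% of all genes (15 genes) did. TXNRD1 was higher in WT dox- by 0.50 ± 0.15 (SE), with an adjusted p of 0.280 in limma. GCLC was higher by 0.41, with an adjusted p of 0.512, and NFE2L2 was lower by 0.32, with an adjusted p of 0.576. With single libraries left out, GCLC ranged from 0.25 to 0.56 and NFE2L2 from -0.46 to -0.17. Of the 8 genes, GCLC and TXNRD1 were higher without overlap, as were 21.6% of all genes, and NFE2L2 and KEAP1 lower without overlap, as were 22.4%. The single S34F dox- library differed from the parental mean by 0.65 for TXNRD1 and by 0.29 for GCLC. Its NFE2L2 was lower by 0.46, its NQO1 by 0.47 and its HMOX1 by 0.41, all without a test. TXNRD1, GCLC, GCLM and AKR1B10 had higher values than the parental mean in all 3 uninduced libraries of the transduced lines. GCLM overlapped the parental libraries, and AKR1B10 was below 1 FPKM throughout. The share of all genes with this order was not counted.

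The wider pathway was described with a list of 59 other genes, NRF2 partners and regulators, targets and enzymes of the same routes, of which 51 passed the minimum level. None of the 51 passed in S34F dox+ against WT dox+, where 28 were higher and 23 lower, with a median of 0.04. ABCC3, an efflux transporter of conjugated anions, was at 23 and 18.6 FPKM in WT dox+, and the S34F dox+ libraries had 7.16 and 10.3. Its difference was -1.18 ± 0.19 (SE), with an adjusted p of 0.234 in limma. The S34F dox- library, at 8.84 FPKM, lay between the S34F dox+ libraries, and WT dox- was at 16.3 and 16.1. UGDH, which makes UDP-glucuronate, was lower by 0.39, and TRIM16L by 0.31, or by 0.14 without S34F dox+ replicate 1. FTL, the ferritin light chain, was higher by 0.54, BLVRB, biliverdin reductase B, by 0.43, and ME1, malic enzyme, by 0.28, with adjusted p of 0.538, 0.538 and 0.767.

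In WT dox+ against WT dox-, 20 of the 51 were higher and 31 lower, and none passed. BACH1, a repressor that competes with NRF2 for its sites, was at 10.4 and 11.3 FPKM in WT dox+ and 6.16 and 6.71 in WT dox-. Its difference was 0.67 ± 0.24 (SE), with an adjusted p of 0.281 in limma. In the S34F line BACH1 was at 19.2 and 10.9 FPKM with doxycycline and at 11 without it, so those libraries did not separate. The heme transporter gene SLC48A1 was higher by 0.67 and the iron exporter gene SLC40A1 by 0.66. Carbonyl reductase CBR1 was lower by 0.76, the lysosomal galactosidase GLA by 0.46 and ferrochelatase FECH by 0.46. These 3 differences kept their sign with single libraries left out, but their size depended on single libraries. They were -0.48 for CBR1 without WT dox+ replicate 2 and -0.21 for GLA without WT dox+ replicate 1. FECH was at -0.26 without WT dox- replicate 2.

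Averaged over both lines, SLC40A1 was the only one of the 51 that passed, and it rose. That is 1 of 51, beside 3.88% of all genes, so the list was not above the background. Its call also rests in part on the single S34F dox- library. SLC40A1 was at 6.19 and 6.28 FPKM in WT dox+, 5.58 and 8.28 in S34F dox+, 3.23 and 3.99 in WT dox-, 2.52 in S34F dox- and 5.41 and 4.16 in the parental line. The difference was 0.90 ± 0.18 (SE), with an adjusted p of 0.0435 in limma. Its adjusted p was 0.0776 to 0.147 without any 1 of WT dox+ replicates 1 and 2, S34F dox+ replicate 2 and WT dox- replicates 1 and 2, and was 0.0450 without S34F dox+ replicate 1. Of the 51 genes, 24 were higher and 27 lower, with a median of -0.03.

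In WT dox- against the parental line, 21 of the 51 were higher and 30 lower, and none passed. TRIM16L was higher by 0.60, the NRF2 partner MAFK by 0.46 and glutathione synthetase GSS by 0.30. The isocitrate dehydrogenase IDH1 was lower by 0.65, SLC48A1 by 0.61 and the kinase GSK3B by 0.43. With single libraries left out, IDH1 ranged from -0.94 without WT dox- replicate 2 to -0.36 without WT dox- replicate 1, GSS was as low as 0.13 without WT dox- replicate 2, and TRIM16L as low as 0.39 without parental replicate 2.

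**Figure D3:**
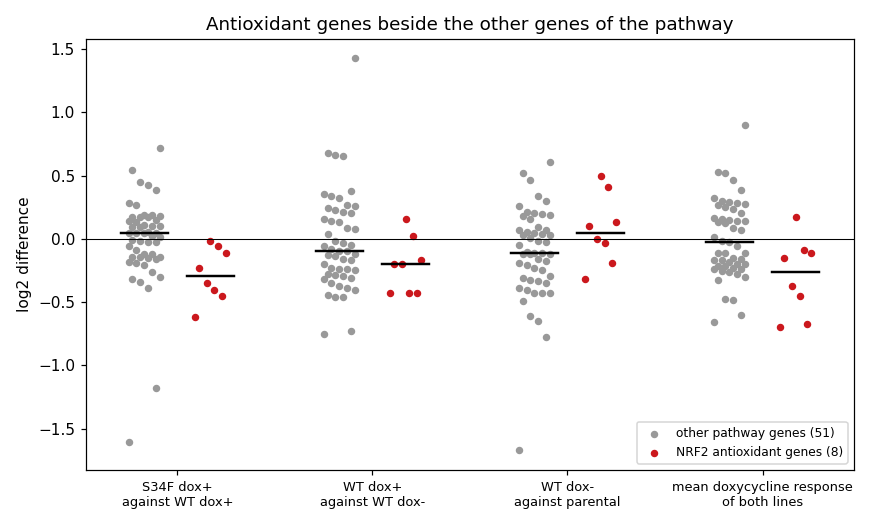
Difference in log2(FPKM + 1) (y axis) of the 8 tested antioxidant genes (red) and the 51 other pathway genes tested (grey) in 4 comparisons (x axis), with medians as lines. In S34F dox+ against WT dox+ the median is -0.29 for the antioxidant genes and 0.04 for the others.

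Splicing was compared between cells with induced S34F and induced WT U2AF1 with MISO, which gives PSI, the fraction of transcripts with the first-listed form of an event (the form with the exon for a skipped exon), and a Bayes factor for a difference. The deposited values are without replicates, so they carry no error between cultures and no p-value. The 9 genes had 62 events in 7 genes, and none in HMOX1 or AKR1B10. At least 10 reads over both conditions were recorded for 61 events. Of these, 2 (3.28%) reached a PSI difference of 0.10 and a Bayes factor of 5, compared with 1.18% of 87763 events in all genes. Of the 2 called, 1 lay upstream of NFE2L2 and is also listed under AC074286.1. Its transcripts did not reach those listed under NFE2L2 alone. AC074286.1 is listed for 11 of the 61 events. Reads are those assigned to the transcripts of an event, and their median was 665 in S34F and 1149 in WT for these genes, beside 223 and 320 over all events. The share called is thus set against events with fewer reads, and the part of read number in it was not tested.

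TXNRD1 had 24 events and 1 of the 2 called. It was a skipped exon of 110 bases at chr12:104682709-104682818 (GRCh37, plus strand), between an exon that ends at 104681124 and one that starts at 104705068. PSI was 0.54 in S34F and 0.31 in WT, with a Bayes factor of 12.66 and 3035 and 5052 reads. The same exon was listed in 4 events, and PSI was higher in S34F in 3 of them. Entered from an exon ending at 104680887 and starting at 104682711, 2 bases further on, it had a PSI of 0.37 in S34F and 0.19 in WT, with a Bayes factor of 4.54. From the same exon with the start at 104682709 it had 0.52 and 0.37, with a Bayes factor of 0.88. In the event with 95 and 158 reads that skips to 104684771 it had 0.47 and 0.53. These 4 events share reads and are not independent of each other.

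The other 10 skipped exon events of TXNRD1 differed by at most 0.02. Its widest difference was at a tandem acceptor (NAGNAG) event with 57 and 70 reads, where PSI was 0.77 in S34F and 0.47 in WT and the Bayes factor was 1.29.

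NFE2L2 had 17 events, of which 5 were listed under NFE2L2 alone and 12 also under AC074286.1, a gene that overlaps long upstream transcripts. The 5 events of the former kind differed by at most 0.07, with Bayes factors up to 1.18. The called event was 1 of the 12, a skipped exon on chromosome 2 between 178188124 and 178199121 (GRCh37, minus strand). PSI was 0.60 in S34F and 0.21 in WT, with a Bayes factor of 10.81 and 110 and 133 reads. It lay 58265 bases upstream of the highest coordinate, 178129859, of the transcripts listed under NFE2L2 alone. The transcripts of the called event spanned 178148240 to 178257419 and did not reach those listed under NFE2L2 alone. Its reads were thus not assigned to the latter, although the event is listed under both gene names. AC074286.1 was at 2.37 and 3.04 FPKM in WT dox+ and at 2.89 and 3.21 in S34F dox+. An alternative 3′ splice site event between 178188101 and 178199121 was not called. Its PSI was 0.72 in S34F and 0.35 in WT, with a Bayes factor of 3.9 and 1724 and 2744 reads. The transcripts of that event spanned 178095036 to 178257425. Other upstream events were lower in S34F, the widest a skipped exon at 0.33 and 0.62 with a Bayes factor of 1.52.

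In the other genes no event was called. KEAP1 had 7 events, with the widest difference at a NAGNAG event, where PSI was 0.53 in S34F and 0.36 in WT at a Bayes factor of 1.02. GCLC had 7 events, and the widest was an alternative 3′ splice site at 0.10 in S34F and 0.04 in WT. Its highest Bayes factor, 1.82, was at a skipped exon with 9 and 20 reads and a PSI of 0.50 and 0.51. That event is also listed under RP1-27K12.2, with transcripts at chr6:53426087-53481967 (GRCh37). These lie beyond the end at 53409927 of those listed under GCLC alone, so its reads were not assigned to the latter. NQO1 had 5 events, with the widest difference at a skipped exon, 0.91 in S34F and 0.97 in WT, with a Bayes factor of 0.76. GCLM and SRXN1 had 1 event each, which differed by 0.01.

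**Figure D4:**
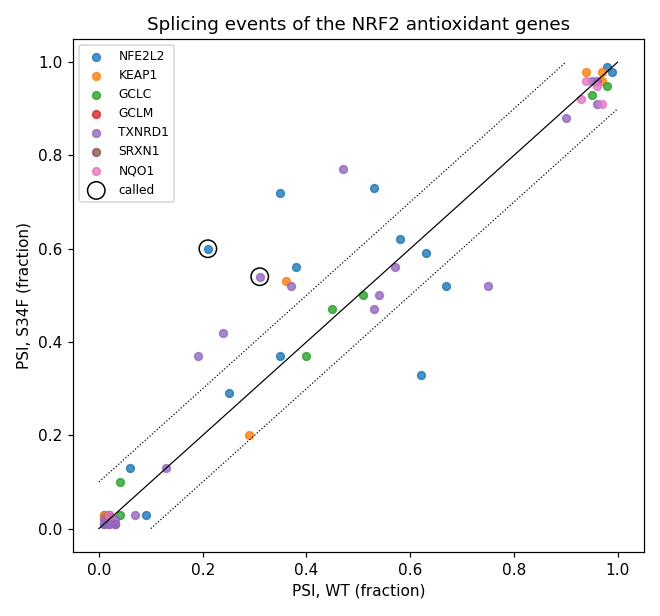
PSI in S34F (y axis) against PSI in WT (x axis), as fractions, for the 61 events of 7 antioxidant genes with at least 10 reads. The solid line marks equal PSI and the dotted lines a difference of 0.10. Circles mark the 2 called events, 1 in TXNRD1 (0.54 and 0.31) and 1 listed under NFE2L2 and AC074286.1 (0.60 and 0.21).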

How the data were processed

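Total RNA was sequenced from 9 libraries. According to the labels' processing notes and the methods, the authors trimmed the reads, aligned them with STAR 2.3.0 (the notes list GRCh37) and computed FPKM and TPM per gene with RSEM 1.2.29, and they deposited both without counts per gene. The deposited MISO tables give PSI, a fraction, the Bayes factor, a ratio, and the read counts of each event. Their sides are unnamed, and S34F was taken as first from the order of the file's title. Columns of the authors' own differences in PSI were not used. Genes were fitted with limma 3.58.1 in R 4.3.3 on log2(FPKM + 1), in 5 groups without covariates, with two-sided tests and Benjamini-Hochberg adjustment at 0.05. The fit was also run on simulated data with changes larger than any reported for these genes. Whether it detects differences of the size reported was not tested. The genes and lists were chosen with earlier results of these data known. All 9 genes were named, together with pathway genes with an adjusted p under 0.05 or the 3 widest differences per direction without overlap at a mean of at least 5 FPKM, the 5 genes with the highest and 3 with the lowest r to the gene with the widest range of group means, and for each gene the events with the highest Bayes factor and the widest PSI difference. Same-numbered replicates were not treated as pairs. Alternatives covered the pseudocount, minimum FPKM, scaling, TPM, a replicate block, the groups fitted, each library left out, and event thresholds. The mean doxycycline response, the alternatives for pathway genes and leaving out events with several isoforms were added after seeing the data. Binding data (iCLIP) were not used here.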

Additional observations from a re-analysis of the deposited data

How the results depend on the processing

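In the 4 comparisons other than the mean doxycycline response, none of the antioxidant genes was called under any alternative tried. The count of all genes called in S34F dox+ against WT dox+ was 8, and became 4 with a pseudocount of 0.1, 3 with no minimum FPKM and 5 with the replicate block, and 4 to 28 with single libraries left out. In WT dox+ against WT dox- it was 2, and became 7 with a pseudocount of 0.1, 8 with a mean of at least 5 FPKM, 0 with no minimum FPKM, quantile normalization, median-ratio scaling, TPM or the replicate block, and 0 to 9 with libraries left out. In the contrast of the responses it was 4, and became 33 with no minimum FPKM and 2 to 11 with libraries left out. In WT dox- against parental it was 15, and became 4 with no minimum FPKM, 8 with quantile normalization, 6 with the replicate block and 3 to 28 with libraries left out. In the mean doxycycline response it was 589, and became 140 with no minimum FPKM, 209 with quantile normalization, 242 with the replicate block, 225 with only the groups compared and 25 to 390 with libraries left out. In that response the antioxidant genes called were 2, and became 0 with no minimum FPKM or only the groups compared, 1 with quantile normalization or the replicate block, and 0 to 1 with libraries left out. The adjusted p of GCLM was 0.0801 with no minimum FPKM, where more genes were tested, and 0.0518 with only the groups compared. That of TXNRD1 was 0.107, 0.0606, 0.0779 with quantile normalization and 0.0599 with the replicate block. That of SLC40A1 was 0.114 with no minimum FPKM, 0.0976 with quantile normalization, 0.0543 with TPM, 0.0682 with the replicate block and 0.0687 with only the groups compared. The cause of these changes was not tested.

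Small differences changed sign. KEAP1 in WT dox+ against WT dox- became -0.0172 with median-ratio scaling. In the contrast of the responses NFE2L2 became -0.00556 with median-ratio scaling and -0.12 with TPM, SRXN1 became -0.0267 with TPM, and NQO1 became -0.11 with TPM and -0.0624 with the replicate block. In WT dox- against parental HMOX1 became 0.00483 with quantile normalization, 0.00176 with median-ratio scaling and 0.0910 with TPM, and NQO1 became 0.0703 with TPM. With single libraries left out, S34F dox+ against WT dox+ ranged from -0.39 to 0.17 for NFE2L2, -0.28 to 0.17 for KEAP1 and -0.19 to 0.16 for SRXN1. WT dox+ against WT dox- ranged from -0.20 to 0.24 for KEAP1, -0.46 to 0.0643 for GCLC and -0.45 to 0.0564 for HMOX1. The contrast of the responses ranged from -0.25 to 0.31 for NFE2L2, -0.44 to 0.0111 for KEAP1, -0.0561 to 0.29 for SRXN1, -0.0750 to 0.15 for NQO1 and -0.0779 to 0.43 for HMOX1. WT dox- against parental ranged from -0.34 to 0.28 for NQO1 and -0.26 to 0.25 for HMOX1, and the mean response from -0.20 to 0.0257 for KEAP1 and -0.24 to 0.0175 for HMOX1. TPM moved the median of all genes from 0.03 to -0.07 in S34F dox+ against WT dox+ and from 0.03 to -0.11 in the contrast of the responses. All 8 antioxidant genes were below the median in S34F dox+ against WT dox+ under FPKM and under TPM.

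Deviations of same-numbered libraries from their group means correlated at -0.08 to 0.04 over 15179 genes, so these deviations had little in common. A shared batch with effects on few genes was not tested, and S34F dox-, with 1 library, could not be checked. With the replicate block the calls among the antioxidant genes went from 2 to 1 in the mean response. At a Bayes factor of at least 20, the antioxidant genes had 0 called events in place of 2. Read depth per library is unknown, which leaves values near 0, such as those of AKR1B10, without a counting interval.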
